A study of Homo sapiens with 8 samples.

Results

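SR proteins and heterogeneous nuclear ribonucleoproteins (hnRNPs) are the RNA-binding proteins that guide the spliceosome to or away from an exon, and their genes were compared between α3-integrin knockdown and control cells. The genes were taken by name, through their current symbol or the symbol in the array's annotation, which is often older. The symbol had the form SRSF or SFRS with a number, HNRNP or HNRP with further letters, TRA2A or TRA2B, without pseudogenes. Genes with such a name only as a further synonym, among them PTBP1, PCBP1, RALY and SYNCRIP, were not counted as members. The rule gave 38 genes of 17298 with a name of their own on the arrays. They are 11 SR proteins, 2 TRA2 proteins, 19 hnRNPs and 6 SR-related proteins that once carried an SFRS symbol (CLASRP, PNISR, SCAF4, SFSWAP, SREK1 and SUGP2). At the gene level 32 of them had a transcript cluster, the array's unit for a gene, and all 38 had probesets, which read single exons or parts of exons. The 671 probesets belong to 1 gene each.

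The cell line was MDA-MB-231, derived from a triple-negative breast cancer. A lentivirus gave the cells stable expression of a short hairpin RNA (shRNA), either targeting integrin α3 (the knockdown group) or a control. Each group had 2 cultures, described by the submitters as biological replicates, grown on standard plates in serum-containing medium. Each culture was read on 1 Affymetrix Human Exon 1.0 ST array, summarised once by gene and once by exon, so the 8 samples hold 4 arrays. No rescue of α3 and no other α3 hairpin was analysed here, and whether a difference came from loss of α3, from something else the hairpin does or from the transduced lines cannot be told apart. Whether a lower value means less RNA per cell or fewer cells expressing the gene also cannot be told apart in bulk RNA.

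SR proteins bind exonic sequences through RNA recognition motifs and recruit splicing components through an arginine- and serine-rich (RS) domain, and they mostly favour inclusion of the exon. hnRNPs coat nascent transcripts, and many of them oppose exon inclusion or compete with SR proteins for nearby sites. Many genes of both kinds limit their own output by splicing in an exon that carries a premature stop codon. The deposited files do not say which probesets lie in such exons.

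ITGA3 encodes α3, which the hairpin targets, and it measured 619 and 644 in knockdown arrays, against 3480 and 3529 in controls (log2 difference -2.44 ± 0.073 (SE), adjusted p = 8.04e-05, limma with Benjamini-Hochberg adjustment). The arrays went with their labels. All intensities are on the linear PLIER scale, the probe-level summary the authors used, and differences are of log2(intensity + 16), knockdown minus control, n = 2 arrays each, which understates changes of dim genes. The median gene-level intensity was 168 and 171 on knockdown arrays and 177 and 186 on control arrays. Over all tested clusters r was 0.990 to 0.992 within groups and 0.961 to 0.968 between them. The 5 cell line markers VIM, CD44, AXL, EGFR and MET all passed the filter on dim features. With the group, EGFR was higher (0.66, adjusted p = 0.00449) and AXL lower (-0.52, adjusted p = 0.00691). CD44 and VIM also lay below the controls and MET above them, without a gene-level call (adjusted p = 0.114, 0.208 and 0.193). On the median of its probesets CD44 was called lower (-0.40, adjusted p = 0.0450, limma). Among markers of other cell types, PTPRC, LYZ, HLA-DRA, DCN, LUM, COL3A1 and COL1A2 lay among the dim features, while CD14, CD3E and COL1A1 passed the filter and were not called. The summed level of 5 leukocyte markers was 403 and 478 in knockdown, against 419 and 406 in controls, and that of 5 fibroblast markers was 373 and 359 in knockdown, against 363 and 341 in controls. CDH1, the epithelial cadherin, went with the group at 177 and 168 in knockdown, against 25.4 and 28.8 in controls. Its cluster lay among the dim features and was not tested at the gene level. On the median of its probesets CDH1 was called higher (1.51, adjusted p = 0.000629, limma). The part of cell state in the values that follow was not tested. The summed level of the 7 luminal and receptor markers, CDH1 included, was 1011 and 1035 in knockdown, against 954 and 986 in controls. Without CDH1 the sum of the other 6 was 834 and 868 in knockdown, against 929 and 957 in controls. Of these 6, ERBB2 had the largest difference and was called lower, at 332 and 346 in knockdown, against 460.2 and 479.7 in controls (-0.45, adjusted p = 0.0170). GATA3 was higher, at 164 and 182 in knockdown, against 144 and 147 in controls, and was not called (0.22, adjusted p = 0.212, limma). EPCAM and FOXA1 overlapped between groups, and ESR1 and PGR lay among the dim features.

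At the gene level most of these genes moved little, 6 rose and 1 fell. SREK1, SRSF9, TRA2A, SRSF11, HNRNPH3 and PNISR were higher in knockdown, by 0.34 to 0.71 on the log2 scale, and HNRNPUL1 was lower, at -0.77. Of all 13207 clusters tested, 5.99% were called higher and 15.3% lower, 21.3% in all. Scaling moved this split, to 10.3% higher and 12.7% lower after quantile normalization and to 11.3% and 11.4% after centring each array on its median, while the members then had 7 rises and 1 fall under either. The members' median difference was 0.10 and that of all clusters -0.06. Both knockdown arrays lay above both controls for 17 of the 32 genes, where 22.3% of all clusters did so, and below both for 6, where 39.6% of all clusters did so. By kind, 2 of 9 SR proteins, 1 of 2 TRA2 proteins, 1 of 15 hnRNPs and 2 of 6 SR-related proteins rose, and the single fall was an hnRNP. The 7 calls became 3 without either knockdown array, 4 without control replicate 1 and 6 without control replicate 2.

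**Figure D1:**
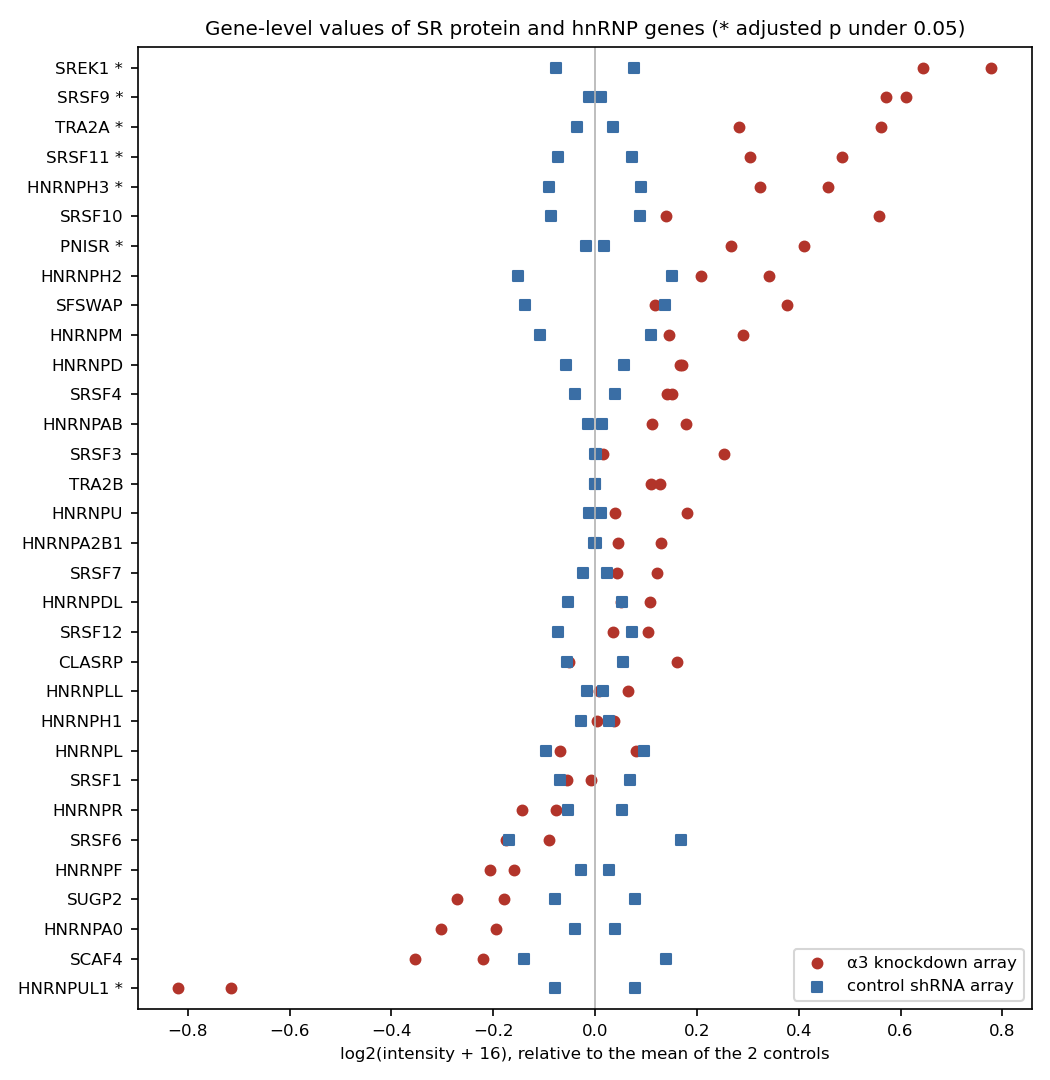
Each row is a gene with a gene-level cluster and each point an array, red circles for the 2 knockdown arrays and blue squares for the 2 controls, as log2(intensity + 16) relative to the mean of the controls. The 6 genes that rose and HNRNPUL1, which fell, carry an asterisk; for 17 of the 32 genes both red points lie above both blue ones.

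SREK1, an RS-domain protein that modulates splice site choice together with SR proteins, measured 703 and 639.8 in knockdown arrays, against 382 and 426 in controls. Both knockdown arrays lay well above both controls. The difference was 0.71 ± 0.098 (SE, adjusted p = 0.00670, limma). All 15 tested SREK1 probesets were higher on both knockdown arrays, with differences of 0.35 to 1.11, and 6 of them passed the test among all probesets. The median of its probesets was 517 and 556 in knockdown, against 291 and 321 in controls (difference 0.78 ± 0.13 (SE), adjusted p = 0.00705, limma).

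SRSF9, an SR protein also known as SRp30c, measured 4755 and 4888 in knockdown arrays, against 3169 and 3222 in controls. The groups were separate and the arrays within each close. The difference was 0.59 ± 0.073 (SE, adjusted p = 0.00496, limma). These gene-level values equal those of probeset 3474517 on every array, so the gene-level value is that of 1 probeset, as for 289 of the 14432 named clusters. The median over its 8 probesets was 3609 and 3844 in knockdown, against 2675 and 2763 in controls, and also rose (0.45 ± 0.092 (SE), adjusted p = 0.0152, limma). This second call was lost without knockdown replicate 2 (adjusted p = 0.102) and without control replicate 1 (adjusted p = 0.0563). The call on the median was also lost in a fit without the intensity trend described below (adjusted p = 0.0568, limma). The 8 probesets ranged from 0.0085 to 0.62, with both knockdown arrays above both controls for 5.

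HNRNPUL1, an hnRNP U-like protein first found as a partner of an adenoviral protein and linked to DNA damage signalling, measured 1140.2 and 1225 in knockdown arrays, against 1914 and 2137 in controls. The groups did not overlap. The difference was -0.77 ± 0.089 (SE, adjusted p = 0.00429, limma). The median of its probesets was 1045 and 1172 in knockdown, against 1714 and 1863 in controls (-0.68 ± 0.11 (SE), adjusted p = 0.00568, limma).

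The upstream sequences of these 3 genes are shown because only they were called in both gene summaries. They are the 250 bases before the outermost annotated start of each gene in RefSeq on GRCh38.p14, written 5′ to 3′ along the gene: SREK1 at chr5:66144050-66144299 on the plus strand, SRSF9 at chr12:120469749-120469998 on the minus strand and HNRNPUL1 at chr19:41262307-41262556 on the plus strand. Capitals mark any of the 5 motifs searched on both strands. They were the E-box with the letters CACGTG, the box known as CCAAT and an ETS-type core with the letters CCGGAAG. Also searched were the GC box with the letters GGGCGG and a palindrome with TCT before a central CGCG and AGA after it. Other palindromes around CGCG were neither searched nor marked.
SREK1: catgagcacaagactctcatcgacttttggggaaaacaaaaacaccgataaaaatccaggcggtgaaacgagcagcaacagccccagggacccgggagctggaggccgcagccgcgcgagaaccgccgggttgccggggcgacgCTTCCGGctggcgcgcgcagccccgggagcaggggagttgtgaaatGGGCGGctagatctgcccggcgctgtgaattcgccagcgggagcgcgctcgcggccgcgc
SRSF9: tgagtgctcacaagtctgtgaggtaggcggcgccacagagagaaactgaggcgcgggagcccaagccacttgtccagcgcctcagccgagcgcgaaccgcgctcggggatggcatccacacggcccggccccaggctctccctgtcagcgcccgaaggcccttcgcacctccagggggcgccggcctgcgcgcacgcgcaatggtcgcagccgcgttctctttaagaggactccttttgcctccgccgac
HNRNPUL1: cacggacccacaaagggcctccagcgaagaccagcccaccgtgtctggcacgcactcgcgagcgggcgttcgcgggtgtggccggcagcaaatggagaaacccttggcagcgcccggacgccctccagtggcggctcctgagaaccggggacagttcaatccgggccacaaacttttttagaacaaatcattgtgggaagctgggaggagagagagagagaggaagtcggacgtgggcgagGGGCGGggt
The SREK1 window held 1 ETS-type core and 1 GC box, with no overlap between them, the HNRNPUL1 window 1 GC box and the SRSF9 window none of the 5. GC content was 66.4%, 68.4% and 63.6% in SREK1, SRSF9 and HNRNPUL1. Of the 38 genes 33 had a window. The E-box was in 8 of them, against 6.46% of the windows of all 27305 genes, CCAAT in 14, against 33.0%, and the ETS-type core in 9, against 8.78%. The GC box was in 20, against 42.2%, and the palindrome in 2 (HNRNPK and SRSF10), against 0.410%. A match describes the letters only and is not a binding site.

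The other 4 rises were smaller and lay nearer the threshold. SRSF11, an SR protein also called p54, measured 1364 and 1202 in knockdown arrays, against 921 and 1022 in controls (0.39 ± 0.098 (SE), adjusted p = 0.0357, limma). HNRNPH3, of the hnRNP H and F family known for binding G-rich runs, measured 1112 and 1223 in knockdown, against 831 and 945 in controls (0.39 ± 0.097 (SE), adjusted p = 0.0359, limma). For both genes the knockdown arrays lay above the controls. PNISR, named for its binding to pinin, measured 634 and 573 in knockdown, against 467 and 479 in controls (0.34 ± 0.090 (SE), adjusted p = 0.0434, limma). TRA2A, a homolog of the Drosophila sex-determination factor transformer 2, which binds purine-rich enhancers, measured 498 and 607 in knockdown, against 396 and 417 in controls, on its brighter cluster (0.42 ± 0.115 (SE), adjusted p = 0.0468, limma). On its other cluster TRA2A overlapped between groups, at 348 and 337 in knockdown and 304 and 368 in controls (0.03, adjusted p = 0.882, limma). None of the 4 was called on the median of its probesets. There the difference was 0.40 for SRSF11 (adjusted p = 0.0691), 0.36 for HNRNPH3 (0.0853), 0.36 for PNISR (0.111) and 0.08 for TRA2A (0.829). For TRA2A 11 of 15 single probesets were higher on both knockdown arrays, and the median of their differences was 0.36. Leaving out any single array ended the calls of PNISR and TRA2A (adjusted p = 0.0732 to 0.282 and 0.0570 to 0.303), and those of SRSF11 and HNRNPH3 in all but the fit without control replicate 2 (0.0714 to 0.196 and 0.0817 to 0.210 where lost).

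SRSF1, SRSF3, TRA2B and SRSF10 did not pass at the gene level. SRSF1, the founding SR protein, measured 3958 and 4087 in knockdown arrays and 3920 and 4312 in controls (-0.03, adjusted p = 0.832, limma), and the groups overlapped. SRSF3, the smallest SR protein, measured 2762 and 3261 in knockdown, against 2734 and 2731 in controls (0.13, adjusted p = 0.381). TRA2B, the paralog of TRA2A, measured 2656 and 2622 in knockdown, against 2427 and 2430 in controls (0.12, adjusted p = 0.284). For SRSF3 and TRA2B both knockdown arrays lay above both controls. SRSF10, which acts as a splicing repressor when dephosphorylated, measured 1611 and 1201 in knockdown, against 1158 and 1024 in controls (0.35, adjusted p = 0.147). Its gene-level values equal those of probeset 4045815, and its knockdown arrays lay far apart, with a difference of 0.14 without knockdown replicate 1 and 0.56 without knockdown replicate 2. The median over its 33 tested probesets overlapped between groups, at 1056 and 1034 in knockdown and 1158 and 984 in controls, and lay on the other side of 0 (-0.03, adjusted p = 0.903).

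HNRNPA2B1, HNRNPH2, HNRNPA0 and the SR-related gene SCAF4 did not pass either, the last 3 named for the size of their difference. HNRNPA2B1, which binds UAG-type motifs, measured 5213 and 5529 in knockdown arrays, against 5055 and 5045 in controls (0.09, adjusted p = 0.475, limma). HNRNPH2, an X-linked paralog of HNRNPH1, measured 846 and 930.2 in knockdown, against 656 and 813 in controls (0.28, adjusted p = 0.158). HNRNPA0, which binds AU-rich mRNAs, measured 1886 and 1750.2 in knockdown, against 2223 and 2102 in controls (-0.25, adjusted p = 0.0749). The knockdown arrays were above the controls for the first 2 genes and below them for HNRNPA0. SCAF4, which binds the tail of RNA polymerase II, measured 510 and 561 in knockdown, against 594 and 724 in controls, also without overlap (-0.29, adjusted p = 0.137). HNRNPH2 passed without control replicate 2 (0.43, adjusted p = 0.0427) and SCAF4 without control replicate 1 (-0.43, adjusted p = 0.0445). HNRNPH2 also passed after quantile normalization (adjusted p = 0.0474) and after centring (0.0460). Over the 25 genes that did not pass, differences lay between -0.29 and 0.35.

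The remaining genes with a gene-level cluster are described by range, with examples picked after their values were seen. HNRNPF, a G-run binder like HNRNPH3, measured 2796 and 2708 in knockdown, against 3066 and 3185 in controls (-0.18, adjusted p = 0.134, limma). HNRNPM measured 2783 and 3082 in knockdown, against 2332 and 2715 in controls (0.22, adjusted p = 0.186). HNRNPD, which binds AU-rich mRNAs and promotes their decay, measured 4178 and 4167 in knockdown, against 3568 and 3862 in controls (0.17, adjusted p = 0.185). The knockdown arrays were below the controls for HNRNPF and above them for HNRNPM and HNRNPD. SUGP2 and HNRNPR likewise lay below the controls, and SRSF4, SRSF7, HNRNPAB and HNRNPU above them, with adjusted p of 0.131 to 0.494. The groups overlapped for SRSF6, SRSF12, SFSWAP, CLASRP, HNRNPH1, HNRNPL and HNRNPLL, with adjusted p of 0.2499 to 0.982. On the median of its probesets, however, SRSF6 lay below the controls, at 1750 and 1569 in knockdown, against 2007 and 2256 in controls (-0.36, adjusted p = 0.0632, limma). There SRSF12, SFSWAP and HNRNPLL lay above the controls, with adjusted p of 0.299 to 0.716.

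HNRNPA1, HNRNPA3, HNRNPC, HNRNPK, SRSF2 and SRSF5 had no cluster of their own and were read as the median of their probesets. In that summary 3.74% of 12210 genes were called higher and 9.57% lower. Of the 38 members SREK1 and SRSF9 rose and HNRNPUL1 fell, as given above. Both knockdown arrays lay above both controls for 15 of the 38, where 19.6% of all genes did so, and below for 5, where 35.8% did so. HNRNPA1, which promotes exon skipping, had 3 tested probesets that differed in direction. Its median on every array is probeset 3416501, with 906 and 1078 in knockdown and 607 and 912 in controls (0.40, adjusted p = 0.188, limma). Its brightest probeset, 3416492, measured 16663 and 14279.8 in knockdown and 16870.1 and 16345 in controls (-0.11, adjusted p = 0.603), and 3416504 differed by -0.65 (adjusted p = 0.193). HNRNPK, which binds C-rich RNA, measured 4886 and 5062 in knockdown, against 5019 and 4689 in controls (0.04, adjusted p = 0.844). SRSF2, which binds both purine-rich and C-rich exonic motifs, measured 3215 and 3254 in knockdown, against 2244 and 2966 in controls (0.32, adjusted p = 0.141). HNRNPA1 and HNRNPK overlapped between groups in this summary and SRSF2 did not. The single SRSF2 probesets, however, had a median difference of 0.0026, with 5 of 15 above the controls on both knockdown arrays and 2 below. HNRNPA1 has many processed copies in the genome, its probesets may read them too, and 13 further probesets shared with other genes were not used. For the remaining 3 genes the adjusted p was 0.0631 for HNRNPA3, 0.381 for HNRNPC and 0.259 for SRSF5.

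By single probesets, 15 of the 600 tested rose and 20 fell. Over all 172397 probesets, 1.33% were called higher and 3.25% lower, 4.58% in all. After quantile normalization 23 member probesets were higher and 17 lower (1.98% and 2.82% of all probesets), and after centring 24 and 14 (2.03% and 2.27%). The median difference was 0.11 for member probesets and -0.05 for all. Both knockdown arrays lay above both controls for 220 member probesets, where 19.4% of all did so, and below for 104, where 31.3% of all did so. The called probesets came from 9 genes: 18 of the 20 falls were in HNRNPUL1, with 1 each in HNRNPDL and SCAF4, and the rises were 6 in SREK1, 4 in SRSF5, 2 in SRSF10 and 1 each in HNRNPAB, HNRNPH3 and SRSF9. The number called was 21 without knockdown replicate 1, 19 without knockdown replicate 2, 14 without control replicate 1 and 20 without control replicate 2. Probesets of 1 gene share its transcript and are not replicates. In 29 genes the median of the tested probesets was above 0. In the medians taken per array, 28 of the 38 members had a difference above 0, as had 5042 of all 12210 genes. Every tested probeset lay above 0 in 7 genes (SREK1, HNRNPH3, SRSF9, HNRNPA3, HNRNPH2, SRSF12 and HNRNPM) and below 0 in HNRNPF. HNRNPH2 and SRSF12 had only 3 tested probesets each, and the share of such genes among all genes was not counted.

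**Figure D2:**
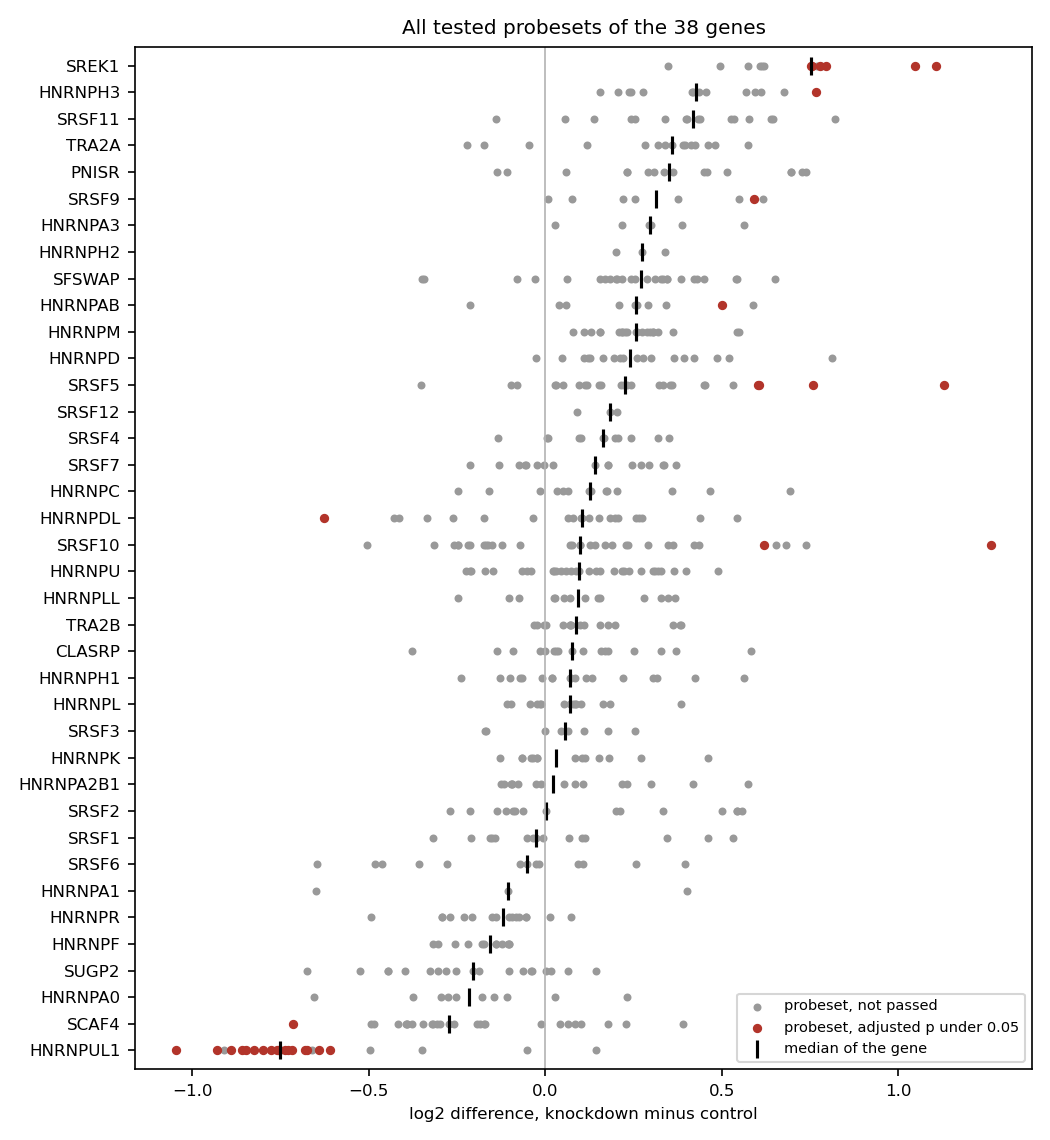
Each row is 1 of the 38 genes and each point a tested probeset, at its log2 difference, knockdown minus control; red points have an adjusted p under 0.05 and the black tick is the median of the gene. SREK1 stands at the top with a median of 0.75 and HNRNPUL1 at the bottom with -0.75.

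The measured differences of HNRNPUL1 varied along its probesets, taken in the order of their numbers since the files give no positions. In the exon usage tests given below, limma called none of these probesets and diffSplice called 1. The following probesets were picked after their values were seen. The 4 lowest-numbered tested ones ranged from -0.50 to 0.14 and none passed, while the 22 others ranged from -1.05 to -0.61 and 18 passed. Probeset 3834097 measured 979 and 881 in knockdown arrays, against 843 and 836 in controls, and was the only tested one with both knockdown arrays above the controls. Probeset 3834136 measured 836 and 858 in knockdown, against 1710.3 and 1825 in controls, the largest difference of the gene (-1.05 ± 0.13 (SE), adjusted p = 0.00503, limma).

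SRSF5, an SR protein also called SRp40, rose at probesets 3542222, 3542223, 3542228 and 3542231, while its other 22 tested probesets did not pass. Probeset 3542223 measured 401 and 471 in knockdown arrays, against 146 and 246 in controls, without overlap (1.13 ± 0.26 (SE), adjusted p = 0.0448, limma). SRSF10 rose at probeset 4045803, with 923 and 1027 in knockdown, against 275 and 568 in controls (1.26 ± 0.29 (SE), adjusted p = 0.0423), and at 4045812, with 2393 and 2195 in knockdown, against 1485 and 1488 in controls (0.62 ± 0.12 (SE), adjusted p = 0.0284). Its 33 tested probesets ran from -0.50 to 1.26, the widest span of the 38 genes. HNRNPDL, a paralog of HNRNPD, fell at probeset 2775565, with 801 and 804 in knockdown, against 1307 and 1194 in controls (-0.63 ± 0.14 (SE), adjusted p = 0.0414). The 5 lowest-numbered tested HNRNPDL probesets, a split picked after the values were seen, were all below 0, at -0.63 to -0.17. Of the 16 others 14 were above 0. At the gene level HNRNPDL overlapped between groups (0.08, adjusted p = 0.531).

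**Figure D3:**
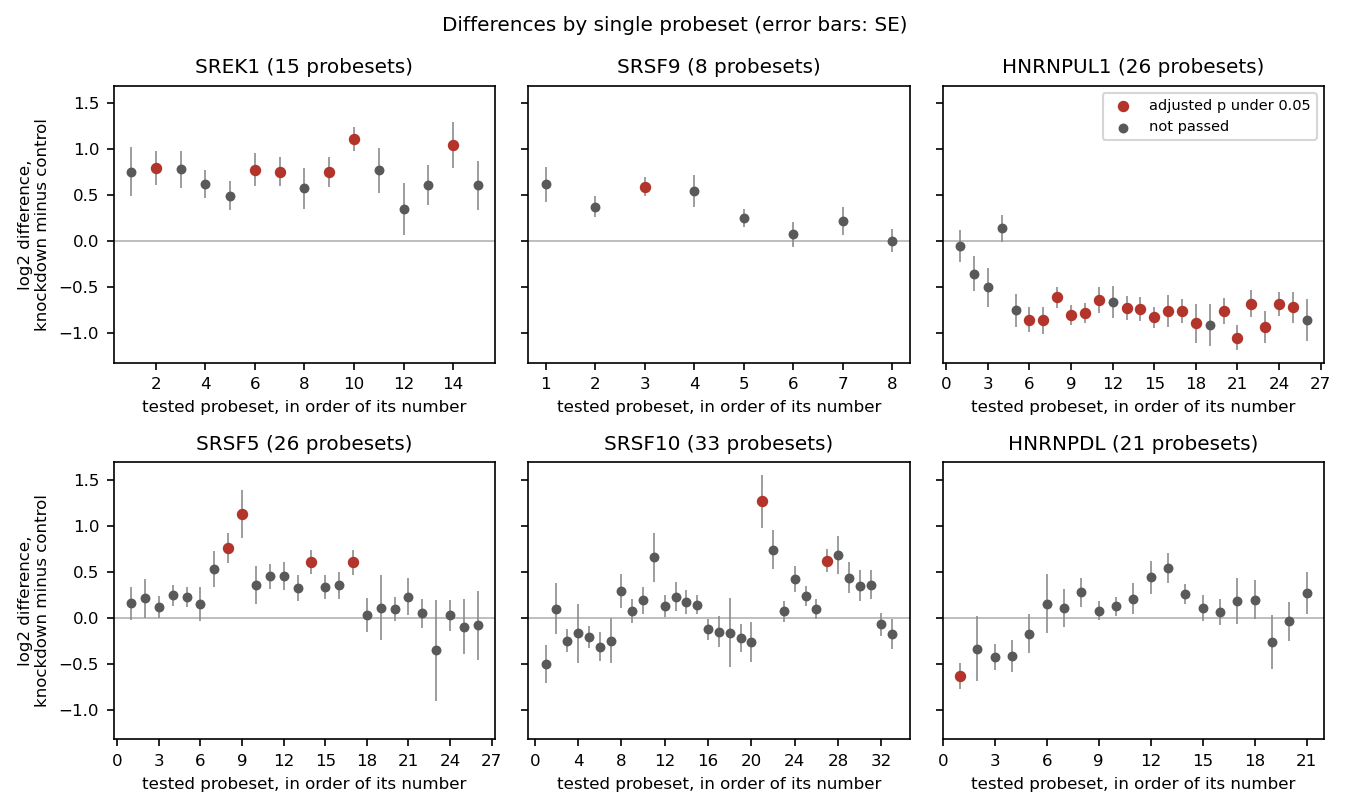
Panels show 6 genes, with the tested probesets in order of their number along the x axis and the log2 difference, knockdown minus control, with its SE on the y axis; red points have an adjusted p under 0.05. SREK1 lies above 0 throughout, HNRNPUL1 drops after its 4 lowest-numbered probesets, and SRSF5, SRSF10 and HNRNPDL hold probesets on both sides of 0.

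Exon usage asks whether a probeset changed relative to the other probesets of its gene. Of 155391 probesets tested, 0.0444% were called by limma (0.0257% higher and 0.0187% lower), and 0 of the 600 member probesets were among them. With so few arrays, 0 calls do not show that the usage of member exons was unchanged. At an unadjusted p under 0.05 there were 32 member probesets, or 5.33%, where 6.06% of all probesets had such a p. The smallest adjusted p was 0.407, for HNRNPUL1 probeset 3834097, whose difference was 0.87 above that of the gene's other probesets. diffSplice, limma's own usage test, called 0.376% of all probesets and 2 of the members': SRSF10 probeset 4045803 (1.17 relative to the others, adjusted p = 0.00211) and HNRNPUL1 probeset 3834097 (adjusted p = 0.0275). The usage calls of these 2 probesets thus depended on the test.

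Proteins that work with SR proteins and hnRNPs were read at the gene level from 3 lists. Of 14 tested RS-domain and SR-related proteins outside the naming rule, 6 rose, 1 fell and 7 did not pass, with a median difference of 0.16, where 5.99% of all clusters rose, 15.3% fell and the median was -0.06. PNN, or pinin, found in splicing speckles and at desmosomes, measured 785 and 1003 in knockdown arrays, against 282 and 377 in controls (1.40 ± 0.17 (SE), adjusted p = 0.00482, limma). LUC7L2, LUC7L and LUC7L3, relatives of a yeast U1 snRNP component, rose by 0.85 (adjusted p = 0.00492), 0.68 (0.0103) and 0.80 (0.0225). For all 4 genes the knockdown arrays lay above the controls.

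Of 8 tested kinases and import factors of SR proteins, 1 rose and 7 did not pass, with a median of 0.11, where 5.99% of all clusters rose and 15.3% fell. SRPK2, a kinase that phosphorylates RS domains, measured 498 and 519.9 in knockdown arrays, against 299.8 and 338 in controls (0.65 ± 0.097 (SE), adjusted p = 0.00839, limma). CLK4, a nuclear kinase of SR proteins, measured 280.5 and 273 in knockdown, against 191 and 235 in controls (0.36, adjusted p = 0.0908), TNPO3, the import receptor for SR proteins, differed by 0.17 (adjusted p = 0.204) and SRPK1 by 0.10 (adjusted p = 0.382). Of 15 tested hnRNP-type proteins with other symbols, 2 rose, 3 fell and 10 did not pass, with a median of -0.08. Over all clusters 5.99% rose, 15.3% fell and the median was -0.06. PCBP1, which binds C-rich RNA, measured 1640.3 and 1648 in knockdown, against 2341 and 2322 in controls (-0.50 ± 0.071 (SE), adjusted p = 0.00716, limma). FUBP1 (-0.32, adjusted p = 0.0267) and RALY (-0.29, adjusted p = 0.0378) fell as well, and FUBP3 rose (0.60, adjusted p = 0.0376). The 3 lists held 13 calls, and 6 without knockdown replicate 1, 3 without knockdown replicate 2, 8 without control replicate 1 and 10 without control replicate 2.

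**Figure D4:**
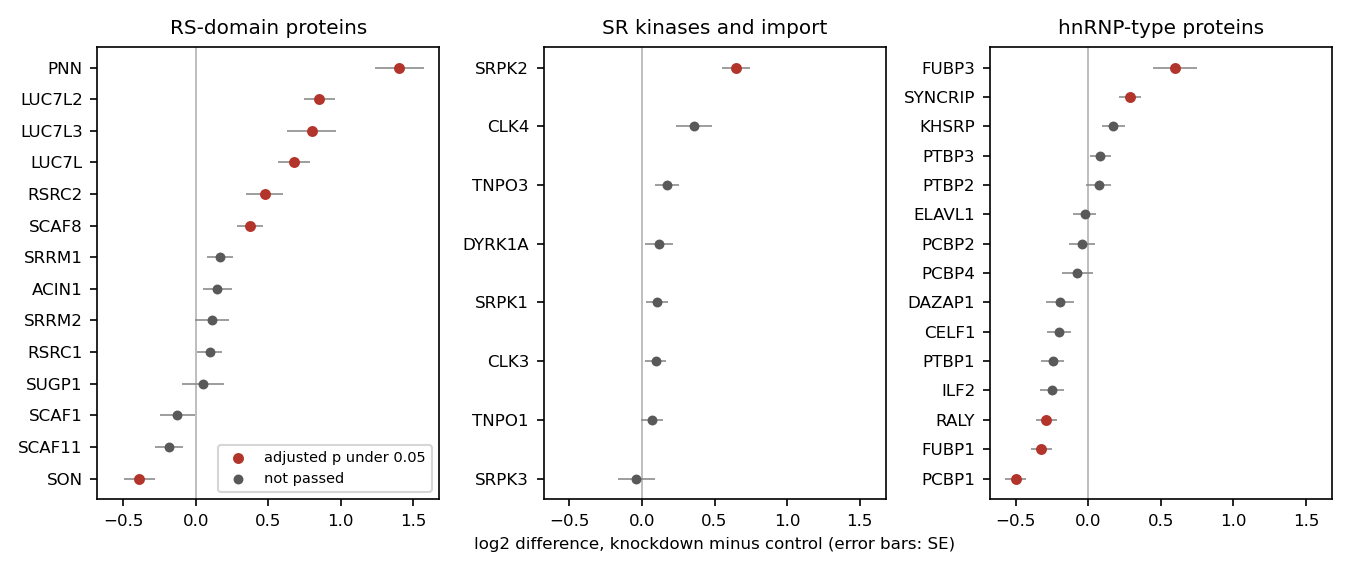
Points are gene-level log2 differences, knockdown minus control, with SE, for 3 lists of related genes; red points have an adjusted p under 0.05. PNN, at 1.40, is the highest point, and 6 of 14 RS-domain proteins, 1 of 8 kinases and import factors and 2 of 15 hnRNP-type proteins are red above 0.

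Genes with exons known from other work to respond to SR proteins or hnRNPs were read for exon usage. Of 415 probesets of 22 such genes, among them PKM, CD44 and BCL2L1, 0 were called by limma and 26 had an unadjusted p under 0.05, or 6.27%, near the 6.06% of all probesets. The smallest adjusted p was 0.225. The counts cover all tested probesets of these genes. The known target exons were not located among them, so the share cannot speak for those exons. Here too, 0 calls do not show that usage was unchanged.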

How the data were processed

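RNA from 4 cultures of MDA-MB-231 was read on exon arrays. The authors deposited linear PLIER intensities per transcript cluster and per probeset, from Affymetrix Expression Console per the submitters' processing notes and the labels. The series text also mentions an Affymetrix exon array tool. For background correction, normalization and versions, the entry is: not given in the sources used here. The column medians differ.

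Groups and replicate numbers came from sample titles. Features were named through the platform annotation, with symbols updated through NCBI RefSeq names (assembly GRCh38.p14). Those with more than 1 symbol, or with none, stayed in the fits unnamed, and TRA2A is represented by its brighter cluster. No array positions are given, since the files name no build.

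The log2 of each intensity plus 16 was taken, and the dimmest 40% of features by mean over the 4 arrays were left out. Of the 671 member probesets 71 were left out this way. The comparison used limma 3.58.1 in R 4.3.3, with eBayes and an intensity trend. Group was the single term, which left 2 residual degrees of freedom. Tests were two-sided, and p-values were adjusted over all features tested (Benjamini-Hochberg, threshold 0.05). The median of probesets and exon usage (each probeset minus the mean of the others of its gene) needed at least 3 tested probesets per gene. P-values rest on the spread between these cultures as shared over features of like intensity, and not on the spread of a gene's own arrays alone. The 4 arrays limit the precision. Each fit was tested on simulated data, where the exon usage fit recovered fewer changes of equal size than the gene-level fit did. Tables were read with data.table, version 1.17.8, while matplotlib 3.10.9 under Python 3.11.15 made the plots.

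The members and lists were chosen with earlier results of these data known. Named were every called member, 8 well-studied members, the 4 with the largest difference among those not passing, and up to 4 per related list by p. Alternatives were other offsets, filters, variance models and scalings, a replicate block, each array left out, the dimmer cluster, genes matched by a synonym only, and diffSplice.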

Additional observations from a re-analysis of the deposited data

How the results depend on the processing

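The 11 members followed singly at the gene level kept their direction in the 12 alternatives of the fit, but SRSF10 was at 0.35 there and at -0.03 on the median of its probesets. HNRNPUL1, SRSF9 and SREK1 were called at the gene level in all 12 alternatives of the fit, SRSF11 and HNRNPH3 in 7, and PNISR and TRA2A in 6. The cause of the changes below was not tested.

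The 7 gene-level calls (6 higher, 1 lower) became 3 without the filter (2 higher), 3 without the intensity trend (2 higher), 3 on the median of probesets (2 higher) and 11 with genes matched only by a synonym (3 lower). With 1 array left out there were 3 to 6, of which 2 to 5 higher and 1 to 2 lower. The members' median of 0.10 became 0.19 after centring each array on its median, where the median of all clusters was 0.04.

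The 35 probeset calls (15 higher, 20 lower) became 0 without the filter and 2 without the trend (1 higher, 1 lower). Higher calls numbered 23 after quantile normalization and 24 after centring, against 17 and 14 lower. With 1 array left out there were 14 to 21, of which 1 to 14 higher and 6 to 14 lower. Usage calls were 2 by diffSplice and 0 under every other setting.

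On the median of probesets, the 3 calls (2 higher, 1 lower), in alternatives partly added after seeing the data, became 5 without the filter (2 lower), 6 among the brightest 40% (4 higher, 2 lower), 7 after quantile normalization and 7 after centring (6 higher each), and 1 higher without the trend. With 1 array left out there were 2 to 5, of which 1 to 4 higher. The 13 calls in related lists became 6 without the filter, 8 without the trend and 3 to 10 with 1 array left out.

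Samples share replicate numbers, but no label pairs them. Same-numbered arrays deviated together with r = 0.290 over clusters and 0.300 over probesets, in 2 pairs. With the replicate block there were 11 gene-level calls (8 higher, 3 lower), among them HNRNPH2 (adjusted p = 0.0456), SCAF4 (0.0397), HNRNPA0 (0.0458) and SRSF10 (0.0239), 133 probeset calls (94 higher, 39 lower), 14 calls on medians (10 higher, 4 lower) and 15 in the related lists. Where a fit kept a single array of a group, its spread was taken from the other group.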
